A study of Mus musculus with 9 samples.

Results

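The core circadian clock genes examined here are the 10 genes Arntl, Clock, Npas2, Per1, Per2, Per3, Cry1, Cry2, Nr1d1 and Nr1d2, found by symbol among the 27434 named genes of a table that also holds 48360 long noncoding RNA (lncRNA) features. All 10 were present, and all 10 had a mean level of at least 1 RPKM (reads per kilobase of collapsed exons, scaled by the library's total). Polyadenylated RNA was sequenced from the nuclei of frozen livers of male CD1 mice, an outbred stock. The control group had received vehicle by tail vein and comprised 4 libraries, 2 of them from 4 weeks after injection (age 11 to 12 weeks) and 2 from 6 weeks after it (age 13 to 14 weeks). The STAT5ca group had received 2e11 genome copies of AAV8-STAT5ca per mouse and comprised 5 libraries, 2 at 4 weeks and 3 at 6 weeks, with the same ages. AAV8-STAT5ca is an adeno-associated virus with a preference for hepatocytes that encodes a constitutively active STAT5b, the transcription factor that carries the growth hormone signal in liver. The control mice received no virus, so the virus itself and STAT5ca cannot be told apart. The promoter that drives the transgene is not given in the sources used here, and the library titles number the males 1 to 4 in the control and 1 to 5 in the STAT5ca group.

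Time of day matters for these genes. Per the labels, every mouse was killed at 11 AM, which is 3.5 h after lights on in a cycle with 12 h of light, so each gene was seen at 1 point of its daily cycle and no amplitude or phase could be measured. In the mammalian clock the proteins BMAL1 (gene Arntl) and CLOCK, or the related NPAS2 in place of CLOCK, bind E-box sequences as a pair and switch on the Per and Cry genes. PER and CRY proteins then accumulate and repress BMAL1 and CLOCK. In a second loop the same activators switch on Nr1d1 and Nr1d2, which encode the nuclear receptors REV-ERB alpha and REV-ERB beta, and these repress Arntl through RORE sequences. Liver is the peripheral tissue in which this clock has been studied most, and it times many metabolic genes there.

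The promoter windows of 5 members are shown as examples of sites in these loops, each of them a window that held a match. They include windows of the 3 genes that fell in the STAT5ca group, all repressors. The Cry1 window and the downstream Per1 window also held matches and are not printed. Whether any site has a part in the levels was not tested. RefSeq windows (build GRCm38.p6, from 250 bases before to 50 bases after a transcript start) were at hand for 9 of the 10 members, in 13 windows. No window was at hand for Per2, so its promoter was not searched. Of the 13 windows, 6 held no match. Capitals mark matches to a searched motif, and each window is printed 5′ to 3′ on the strand of its gene. The Nr1d1 window lies at chr11:98775328-98775627 (minus strand), that of Cry2 at chr2:92434020-92434319 (minus), the upstream window of Per1 at chr11:69098699-69098998 (plus), that of Per3 at chr4:151044616-151044915 (minus) and the downstream window of Arntl at chr7:113207261-113207560 (plus).
Nr1d1: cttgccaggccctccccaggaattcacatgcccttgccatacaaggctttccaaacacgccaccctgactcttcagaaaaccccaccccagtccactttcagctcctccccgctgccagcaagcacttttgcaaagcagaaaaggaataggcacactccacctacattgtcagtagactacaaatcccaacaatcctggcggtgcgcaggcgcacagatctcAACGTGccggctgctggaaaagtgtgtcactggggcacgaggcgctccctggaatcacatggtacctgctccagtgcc
Cry2: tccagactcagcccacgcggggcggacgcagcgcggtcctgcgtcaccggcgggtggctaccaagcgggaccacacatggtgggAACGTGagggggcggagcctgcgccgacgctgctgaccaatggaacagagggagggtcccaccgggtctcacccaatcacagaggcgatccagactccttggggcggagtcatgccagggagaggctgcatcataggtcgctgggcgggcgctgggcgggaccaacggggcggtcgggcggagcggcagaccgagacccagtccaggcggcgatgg
Per1: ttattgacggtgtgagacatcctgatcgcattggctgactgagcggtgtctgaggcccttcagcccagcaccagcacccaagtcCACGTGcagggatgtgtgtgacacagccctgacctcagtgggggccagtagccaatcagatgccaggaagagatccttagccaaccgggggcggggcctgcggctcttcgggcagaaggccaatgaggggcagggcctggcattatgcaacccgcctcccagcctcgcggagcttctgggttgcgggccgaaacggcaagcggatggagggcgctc
Per3: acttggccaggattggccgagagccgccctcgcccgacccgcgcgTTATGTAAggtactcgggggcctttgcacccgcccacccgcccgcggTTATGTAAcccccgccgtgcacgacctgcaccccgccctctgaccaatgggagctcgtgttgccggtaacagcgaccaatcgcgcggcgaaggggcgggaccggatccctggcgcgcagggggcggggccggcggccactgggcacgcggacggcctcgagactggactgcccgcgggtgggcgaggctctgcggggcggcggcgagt
Arntl: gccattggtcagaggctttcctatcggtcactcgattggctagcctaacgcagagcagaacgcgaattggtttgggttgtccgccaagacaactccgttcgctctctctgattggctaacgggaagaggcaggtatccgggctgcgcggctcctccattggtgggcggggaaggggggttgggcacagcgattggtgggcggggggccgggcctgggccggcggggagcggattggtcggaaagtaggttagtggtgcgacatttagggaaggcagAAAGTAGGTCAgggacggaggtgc

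Matches were searched on both strands for CACGTG (E-box), AACGTG (a weaker variant, called E-prime box), RORE (by name, the site of REV-ERB and ROR receptors), TTATGTAA or TTACGTAA (D-box, the site of DBP, TEF and HLF) and TTCNNNGAA (STAT5 type). No match overlapped another. An E-box began 166 bases upstream of the Per1 start and 60 bases upstream of the Cry1 start. E-prime boxes lay 28 bases upstream of the Nr1d1 start, 166 bases upstream of that of Cry2 and 79 bases upstream of that of Cry1. Of all 32851 RefSeq windows, 7.15% held an E-box and 4.68% an E-prime box.

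The Per3 window held 2 D-boxes, 205 and 158 bases upstream of its start, against 1.06% of all windows with any D-box. A RORE began 26 bases after the downstream start of Arntl, a motif that 0.384% of all windows held. The STAT5 type motif was found once among the members, 210 bases upstream of the second Per1 start, against 8.30% of all windows. The windows of Clock, Npas2 and Nr1d2 held none of the 5 motifs, which says only that these letters are absent from these windows. A match is a description of letters and was not measured as a bound site here.

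**Figure D1:**
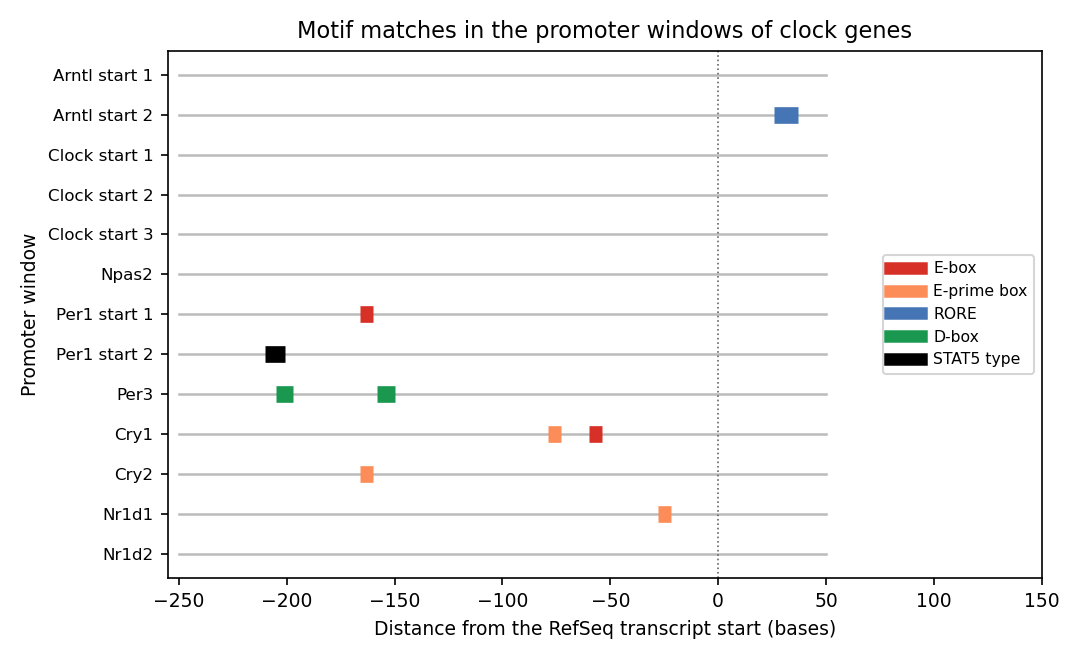
Motif matches in the 13 promoter windows of 9 clock genes, by distance in bases from the RefSeq transcript start (dotted line), with grey lines for the windows and coloured blocks for the matches. E-box or E-prime box matches appear for Per1, Cry1, Cry2 and Nr1d1, D-boxes for Per3 and a RORE for Arntl. Per2 had no window and was not searched.

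Repressor genes of the clock fell in the STAT5ca livers, while no activator gene passed the threshold. Of the 7 repressors, Nr1d1, Cry2 and Per1 fell (by the authors' deposited table, at an adjusted p below 0.05), and of the 3 activators 0 passed in either direction. Among all named genes 1.92% fell and 3.87% rose by the same rule, and among the 11699 named genes with a mean of at least 1 RPKM 3.95% fell and 6.09% rose. The median log2 fold of the repressors was -0.78, with 6 of 7 below 0, and that of the activators 0.18, with 3 of 3 above 0. The median over the 11699 named genes was 0.016, and 48.4% of them lay below 0. The difference between the arms was not tested, because the authors' deposited table holds 1 level per gene and group, each a mean of that group's libraries, and no value of a single library. For the same reason no SD is given here, and the spread between libraries enters through the authors' adjusted p alone.

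**Figure D2:**
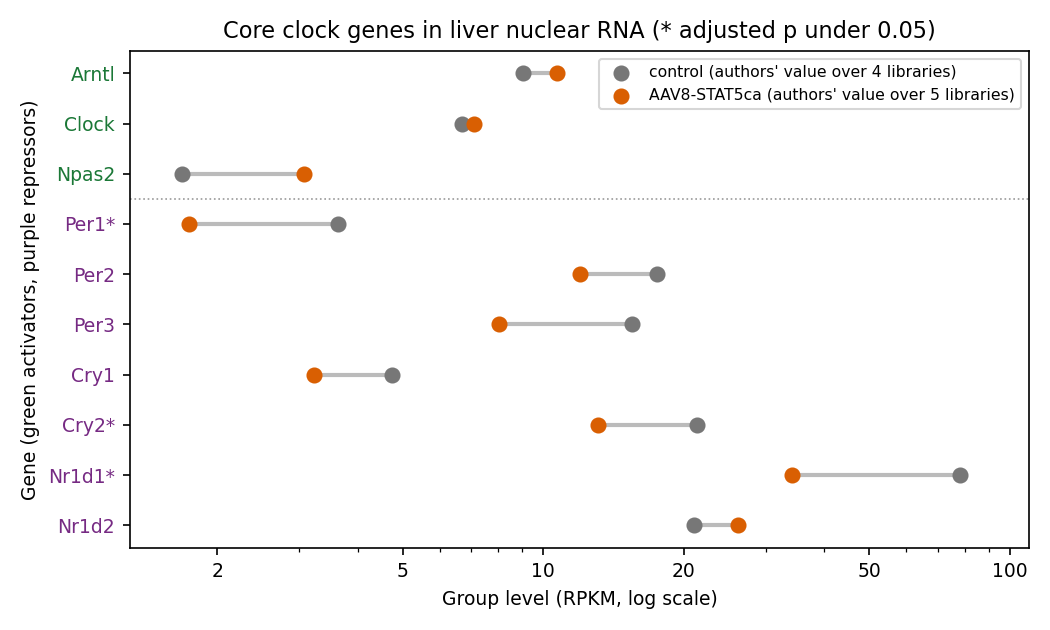
Levels of the 10 clock genes in RPKM on a log axis, with 1 point per group (the authors' mean over 4 control and over 5 STAT5ca libraries) joined by a grey line and no error bars, as each value is a group mean. Every repressor except Nr1d2 lies lower in the STAT5ca group, from 78.1 to 34.1 RPKM for Nr1d1, while the 3 activators lie at or above their control level.

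Nr1d1, which encodes REV-ERB alpha, was the most abundant clock gene per length in both groups. Its level was 78.1 RPKM in the controls against 34.1 RPKM with STAT5ca, and by the authors' deposited table it was 2.42-fold lower, at an adjusted p of 6.21e-05. The gene lies on chromosome 11 (98629246 to 98636691, in mm9 as for all gene positions below). Per length it made up 48.3% of the summed RPKM of the repressors in control and 34.7% in STAT5ca livers. Only 1.16% of the 11699 named genes had a lower log2 fold than Nr1d1.

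Nr1d2, its paralog for REV-ERB beta on chromosome 14 (19036570 to 19071620), did not share this. It stood at 21.0 RPKM in the controls against 26.1 RPKM with STAT5ca (1.18-fold higher by the authors' deposited table, with an adjusted p of 1.00). The level of Nr1d1 was 3.72 times that of Nr1d2 in control and 1.31 times in STAT5ca livers. Nr1d2 was the single repressor with a log2 fold above 0, at 0.23. Whether the responses of the paralogs differ was not tested.

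The table spans of Nr1d1 and Thra overlap by 1075 bases. Thra encodes a thyroid hormone receptor and is known to be transcribed from the opposite strand. Thra was at 5.48 RPKM in the controls against 4.09 RPKM with STAT5ca (the authors' deposited table gives an adjusted p of 0.287). Whether the authors' counting used strand is not given in the sources used here, so reads in the shared stretch may have been assigned to either gene. The level of Thra was below that of Nr1d1 in both groups.

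Both cryptochrome genes had lower levels, and Cry2 passed the threshold. CRY proteins are the strongest repressors of BMAL1 and CLOCK. Cry2, on chromosome 2 (92243804 to 92274226), was at 21.3 RPKM in the controls against 13.1 RPKM with STAT5ca (1.71-fold lower by the authors' deposited table, with an adjusted p of 0.00343). Cry1, on chromosome 10 (84594445 to 84647799), was at 4.73 RPKM in the controls against 3.23 RPKM with STAT5ca (1.53-fold lower by the authors' deposited table, with an adjusted p of 0.391). The level of Cry2 was 4.51 times that of Cry1 in control and 4.07 times in STAT5ca livers. In log2 terms the folds were -0.78 for Cry2 and -0.62 for Cry1. Whether the folds of the pair differ was not tested.

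All 3 Per genes had lower levels in STAT5ca livers, and Per1 passed. PER proteins form complexes with CRY and carry it into the nucleus. Per1, on chromosome 11 (68912451 to 68923459), was at 3.63 RPKM in the controls against 1.74 RPKM with STAT5ca (2.17-fold lower by the authors' deposited table, with an adjusted p of 0.00447). Per1 is also known to respond quickly to cyclic AMP and glucocorticoids. Per3, on chromosome 4 (150377764 to 150418774), was at 15.5 RPKM in the controls against 8.03 RPKM with STAT5ca (2.03-fold lower by the authors' deposited table, with an adjusted p of 0.241). Per2, on chromosome 1 (93312559 to 93355905), was at 17.5 RPKM in the controls against 12.0 RPKM with STAT5ca (1.52-fold lower by the authors' deposited table, with an adjusted p of 0.383). The summed level of the 3 genes was 36.6 RPKM in the controls against 21.8 RPKM with STAT5ca. Per1 was the lowest of the 3 in either group and the one that passed.

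None of the activators passed. Arntl, on chromosome 7 (120350979 to 120457640), was at 9.03 RPKM in the controls against 10.7 RPKM with STAT5ca (1.13-fold higher by the authors' deposited table, with an adjusted p of 1.00). Clock, on chromosome 5 (76638893 to 76733817), was at 6.71 RPKM in the controls against 7.11 RPKM with STAT5ca (1.01-fold higher by the authors' deposited table, with an adjusted p of 1.00). Its direction turns when the median named gene is set to 0, at a log2 fold of -0.005.

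Npas2, which encodes the alternative partner of BMAL1, lies on chromosome 1 (39251117 to 39420085). Its level was 1.68 RPKM in the controls against 3.07 RPKM with STAT5ca (1.70-fold higher by the authors' deposited table, with an adjusted p of 1.00). This was the largest fold among the activators and the lowest control level of all 10 genes. The level of Clock was 3.98 times that of Npas2 in control and 2.32 times in STAT5ca livers. A difference in Npas2 was not detected, which does not show that it is absent.

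Summed per length, the activators reached 17.4 RPKM in the controls against 20.9 RPKM with STAT5ca, and the repressors 162 RPKM and 98.3 RPKM. The ratio of activators to repressors was 0.108 in control and 0.213 in STAT5ca livers, a quantity led by Nr1d1. With geometric means, which weigh each gene alike, it was 0.314 and 0.658. The level of Nr1d1 was 8.64 times that of its target Arntl in control and 3.17 times in STAT5ca livers. The span from the highest to the lowest of the 10 genes was 46.3 times in control and 19.6 times in STAT5ca livers. The order of levels in control was Nr1d1, Cry2, Nr1d2, Per2, Per3, Arntl, Clock, Cry1, Per1 and Npas2. In STAT5ca livers Nr1d2 stood above Cry2, Arntl above Per3 and Npas2 above Per1. Which neighbours in these orders differ beyond their spread could not be tested on group means.

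**Figure D3:**
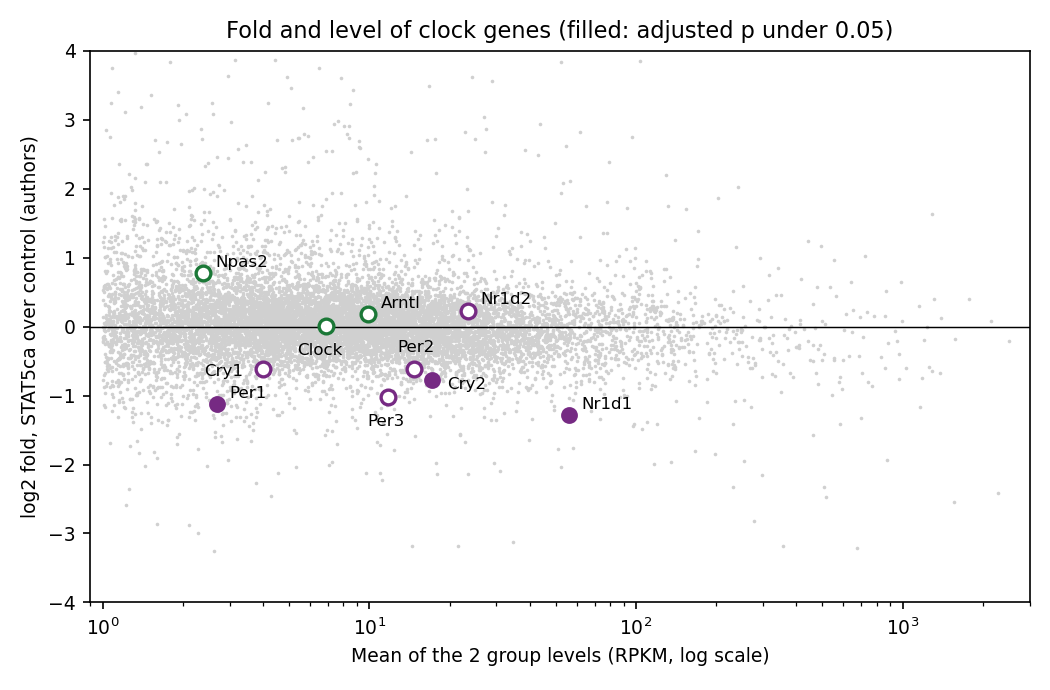
Authors' log2 fold (STAT5ca over control) against the mean of both group levels in RPKM on a log axis, with grey points for named genes at a mean of at least 1 RPKM and circles for clock genes (green activators, purple repressors, filled where the adjusted p was under 0.05). The 3 filled circles are Nr1d1, Cry2 and Per1, at log2 folds from -1.28 to -0.78, and 63 of the 11699 genes lie beyond the axes.

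The adjusted p depends on level, fold and the spread between libraries, so each clock gene was set beside named genes like it, a description chosen after its values were seen. Genes were taken as alike when their mean level was within 2-fold of the member's and the size of their log2 fold within 0.1 of it, in either direction. For Per3, 58 of 81 such genes passed (71.6%), and by the authors' deposited table their median adjusted p was 0.0101, against 0.241 for Per3. For Npas2, 77 of 247 passed (31.2%, median adjusted p 0.108), and by the authors' deposited table, 20 of the 247 shared its adjusted p of 1.00. Both adjusted p-values were above the median of like genes, as were those of Per2 (0.383 against 0.109) and Cry1 (0.391 against 0.194) by the authors' deposited table.

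For Per2 83 of 356 like genes passed (23.3%) and for Cry1 55 of 463 (11.9%), so most genes of this level and fold missed the threshold. Cry2 passed where 97 of 162 did (59.9%), Per1 where 82 of 111 did (73.9%) and Nr1d1 where 14 of 16 did (87.5%). Folds as small as those of Arntl, Clock and Nr1d2 passed in 0 of 1979, 0 of 1254 and 0 of 1109 genes. The smallest fold that passed among genes at the levels of the 10 members was 1.48-fold or 1.49-fold. The folds of Arntl, Clock and Nr1d2 were below that size, so a change of their size was not detectable here.

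**Figure D4:**
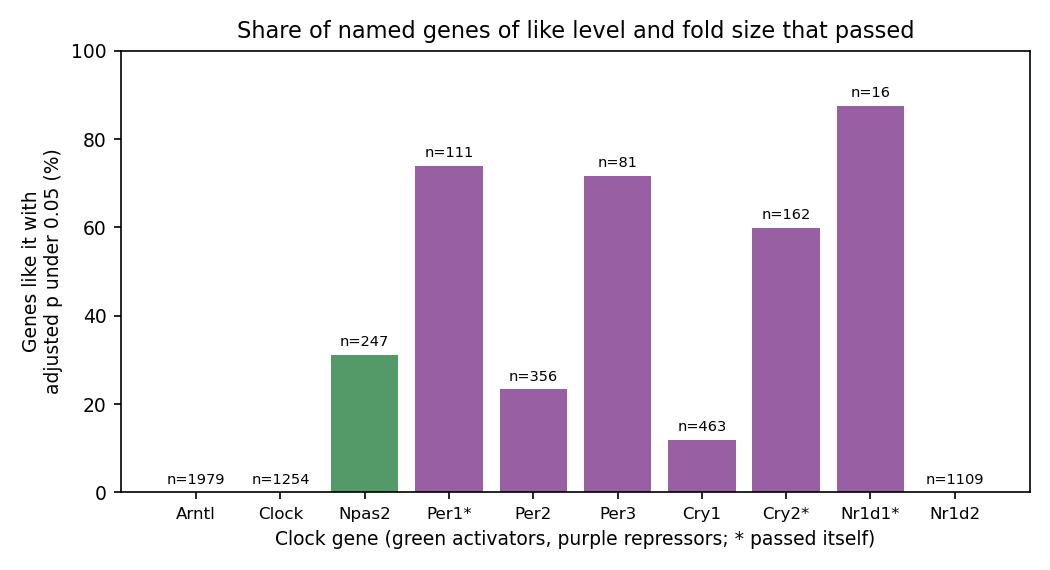
Percent of named genes of like level and fold size whose adjusted p was under 0.05, for each clock gene (green activators, purple repressors, an asterisk where the clock gene itself passed, n the number of like genes). Per3 stands at 71.6% without passing itself, while Arntl, Clock and Nr1d2 stand at 0%.

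If the authors' adjustment is a step-up (Benjamini-Hochberg) one over all features, an upper bound of each unadjusted p follows from it. By that bound 6 of 10 members had an unadjusted p under 0.05 and lower levels in STAT5ca livers (Nr1d1, Cry2, Per1, Per3, Per2 and Cry1), with 0.0174 for Per3, 0.0350 for Per2 and 0.0361 for Cry1. Among the 11699 named genes with a mean of at least 1 RPKM, 12.5% were lower and 14.7% higher by the same bound. Among members with higher levels the count was 0. The bound of Nr1d2 and of the activators was 1.00, as it is for every feature at the largest possible adjusted p. It therefore says nothing about the unadjusted p of these genes, and the count of 0 is no sign of its size.

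The counts in the gene lists that follow stand against 6.09% risen and 3.95% fallen among the 11699 named genes. Clock output factors carry the rhythm to other genes through D-boxes and E-boxes. Of 7 such transcription factor genes 2 fell and 0 rose, with 7 of 7 log2 folds below 0 and a median of -0.50. Ciart, a further repressor of BMAL1 and CLOCK, had 7.23 RPKM in the controls against 1.37 RPKM with STAT5ca (5.47-fold lower by the authors' deposited table, with an adjusted p of 0.00357). Dbp, a D-box activator gene, had 78.1 RPKM against 24.4 RPKM (3.42-fold lower by the authors' deposited table, with an adjusted p of 0.0303). By the authors' deposited table the D-box activator genes Tef (51.0 and 30.2 RPKM, adjusted p of 0.120) and Hlf (5.34 and 4.00 RPKM, adjusted p of 0.157) did not pass. Nfil3, the D-box repressor gene, was at 25.7 and 25.6 RPKM.

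ROR receptors are the activators that compete with REV-ERB for the RORE. Rora was at 4.26 and 4.25 RPKM and did not pass, and Rorb was listed at 0 in both groups. Kinases and phosphatases that act on clock proteins gave 1 risen and 0 fallen of 14, a share near the background, with a median log2 fold of 0.23. The risen gene was Prkaa1, a catalytic subunit of the energy sensor AMPK, whose activity marks CRY for degradation (2.82 and 4.65 RPKM, 1.57-fold higher by the authors' deposited table with an adjusted p of 0.0434). Of 11 ubiquitin ligase and protease genes 0 passed in either direction (median 0.15). The deubiquitinase gene Usp2, whose own expression follows the clock in liver, was at 1.40 and 0.650 RPKM (the authors' deposited table gives an adjusted p of 0.167). Among 20 cofactors 1 rose and 0 fell (median -0.01), likewise near the background, namely Tipin, a partner of Timeless that also acts in DNA replication (3.66 and 7.84 RPKM, 2.05-fold higher by the authors' deposited table with an adjusted p of 0.00239).

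Of 20 output genes known for daily rhythms in liver 2 rose and 2 fell, with a median log2 fold of -0.01, against 6.09% risen and 3.95% fallen of the 11699 named genes. Nampt, an enzyme of NAD synthesis and a target of CLOCK and BMAL1, had 5.44 RPKM against 18.7 RPKM (3.28-fold higher by the authors' deposited table, with an adjusted p of 1.80e-13). Alas1, the first enzyme of heme synthesis, had 20.8 RPKM against 48.0 RPKM (2.21-fold higher by the authors' deposited table, with an adjusted p of 0.0250). Gys2, the liver glycogen synthase gene, had 32.1 RPKM against 17.9 RPKM (1.90-fold lower by the authors' deposited table, with an adjusted p of 0.0245). Elovl3 encodes a fatty acid elongase and is also known as a male-biased gene. It had 61.7 RPKM against 7.65 RPKM (8.74-fold lower by the authors' deposited table, with an adjusted p of 2.48e-05). Noct, a rhythmic deadenylase gene, was at 21.4 and 83.4 RPKM without passing (the authors' deposited table gives an adjusted p of 0.146).

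**Figure D5:**
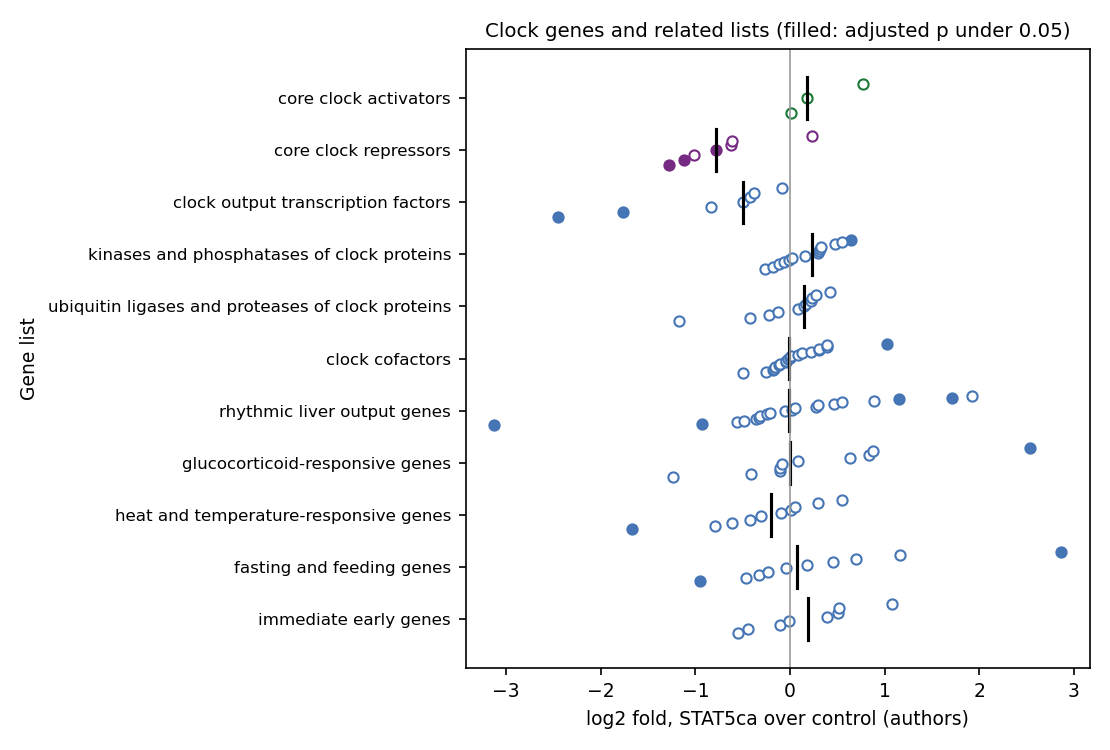
Authors' log2 fold (STAT5ca over control) of each gene in 11 lists, with the core activators in green, the core repressors in purple and other lists in blue, filled where the adjusted p was under 0.05 and with a black line at each list's median. Of the lists drawn, which leave out the cell type markers, the core repressors have a median of -0.78 and the clock output factors one of -0.50.

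Signals that are known to set the liver clock were examined through their response genes. Of 10 glucocorticoid-responsive genes 1 rose and 0 fell (median 0.00). It was Fkbp5, a chaperone of the glucocorticoid receptor, at 4.05 and 24.6 RPKM (5.81-fold higher by the authors' deposited table, with an adjusted p of 1.62e-11), while Tat was at 648 and 647 RPKM. Heat and temperature genes gave 0 risen and 1 fallen of 10 (median -0.20), namely Serpinh1, the collagen chaperone gene that stellate cells express strongly (3.19-fold lower by the authors' deposited table, with an adjusted p of 4.16e-10). Fasting and feeding genes gave 1 risen and 1 fallen of 10 (median 0.07). Pnpla3, a lipid droplet gene induced by feeding, had 6.30 RPKM against 48.4 RPKM (7.30-fold higher by the authors' deposited table, with an adjusted p of 2.30e-05). Angptl4, an inhibitor of lipoprotein lipase induced by fasting, had 27.0 RPKM against 14.7 RPKM (1.94-fold lower by the authors' deposited table, with an adjusted p of 0.0326). Of 8 immediate early genes 0 passed (median 0.19).

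Features around the clock genes were examined on either strand. Within 10 kb of the members lay 42 other features, of which 2 rose and 1 fell, against 2.34% risen and 1.49% fallen of all 75794 features. Inside the span of Nr1d2 lies an antisense lncRNA (nc_as_c14_11846, span of 3603 bases). It was listed at 0 in control and at 0.125 RPKM in STAT5ca livers (the authors' deposited table gives an adjusted p of 9.44e-04), far below the 26.1 RPKM of Nr1d2. Btbd10, a gene 1518 bases from the span of Arntl, was at 1.15 and 2.35 RPKM (1.92-fold higher by the authors' deposited table, with an adjusted p of 0.010). An intergenic lncRNA 9411 bases from Nr1d1 (nc_inter_c11_10051) was at 0.322 and 0.130 RPKM (2.53-fold lower by the authors' deposited table, with an adjusted p of 0.0317). The most abundant neighbours were Hes6 near Per2 (88.1 and 63.4 RPKM), Vamp2 near Per1 (26.9 and 22.0 RPKM) and Rpl31 near Npas2 (25.4 and 29.8 RPKM), and none of the 3 passed. Named genes inside the spans of Arntl (Gm45355) and Cry2 (D930015M05Rik) stayed under 0.06 RPKM in both groups.

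The nuclei came from whole liver, and marker levels of several types moved between the groups. Stellate cell and endothelial markers had median log2 folds of -0.62 and -0.53. Summed over 8 markers each, Kupffer cell and macrophage genes were at 201 and 373 RPKM in control and STAT5ca livers (2 rose, 0 fell), and lymphocyte genes at 23.5 and 48.3 RPKM (3 rose, 0 fell). Endothelial genes were at 363 and 254 RPKM (0 rose, 3 fell) and stellate cell genes at 307 and 166 RPKM (0 rose, 4 fell). The 6 cholangiocyte genes summed to 16.9 and 76.4 RPKM (1 rose, 1 fell), most of it Spp1. Hepatocyte markers summed to 10258 and 19634 RPKM (1 of 8 rose, Alb, and 0 fell), of which Alb alone was at 4563 and 14666 RPKM. Their median log2 fold was -0.10, with 5 of 8 below 0. No marker of these lists was at 0 in either group. In bulk RNA, fewer cells of a type and less RNA per cell cannot be told apart, and the part of these shifts in the clock gene levels was not tested.

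Library totals, read from the lowest RPKM values, were 9489045 to 13144589 reads in control and 11823873 to 14863490 reads in STAT5ca libraries. At these totals the lowest clock gene levels, those of Npas2 in control and Per1 in STAT5ca livers, correspond to about 76.7 and 122 reads per kilobase over the whole group. Nr1d1 corresponds to about 3556 and 2380.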

How the data were processed

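Nuclear polyadenylated liver RNA of 9 libraries was compared in 2 groups. The submitters' processing notes list STAR, featureCounts and edgeR (no version stated) and build mm9. Per the file headers, the deposited values are, for each feature, 1 RPKM per group on collapsed exons, a signed fold score (positive for STAT5ca over control) and an adjusted p-value headed as edgeR. The sources used here do not give the adjustment, whether time entered the fit or whether counting used strand. Both times are pooled, and p-values measure the spread between libraries, whose titles number the males.

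Members and lists were chosen with earlier results of these data known. All 10 members are named, and in other lists the members past an adjusted p of 0.05 plus up to 3 abundant ones. The log2 fold is that of the authors' signed fold. For 936 of 955 microRNA genes end minus start plus 1 equalled the RefSeq length, so positions are printed as deposited. Library totals were read from faint lncRNAs whose RPKM equals 1 read in 1 library, with their length taken as end minus start, without the added base. The p-values were adjusted again after inverting a step-up adjustment, and both steps were tested on simulated data. Alternatives were other thresholds, minimum folds of 1.5 and 2, minimum levels, and RPKM ratios with no pseudocount or with 0.1 or 1. Python 3.11.15 with pandas 2.3.3, numpy 2.4.6 and matplotlib 3.10.9 was used.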

Additional observations from a re-analysis of the deposited data

How the results depend on the processing

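The 3 fallen clock genes remained past an adjusted p of 0.01 and of 0.1, a minimum fold of 1.5 and both repeated adjustments of p. At a minimum fold of 2 the count was 2 (Nr1d1 and Per1), and 0 clock genes rose in any of these settings. Per3 came closest to the threshold when p was adjusted again over features with a mean of at least 0.1 RPKM, at 0.0907. The median log2 fold of the repressors was -0.660 with RPKM ratios at a pseudocount of 1. The log2 fold of Clock turned to -0.005 when centred on the median named gene, and the other 9 kept their direction in every fold setting. Geometric means gave activator to repressor ratios of 0.314 in control and 0.658 in STAT5ca livers in place of 0.108 and 0.213. Of features near the clock genes 1 rose and 0 fell of 4 by overlap alone, and 4 rose and 1 fell of 99 within 50 kb. Of all 75794 features 2.34% rose and 1.49% fell. Of the further lists, 21 alternative counts moved by over 1.5 times, among them the fallen output factors (1, Ciart, at an adjusted p of 0.01) and the fallen endothelial markers (0 at an adjusted p of 0.01 or a minimum fold of 2). No paired analysis was possible because the deposited columns carry no replicate numbers, only 1 level per group. For the same reason leaving out each replicate was not run, so whether 1 library decides the fall of Nr1d1, Cry2 or Per1 is not known.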

Other observations

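Between 10 and 50 kb from the clock genes 2 named genes rose. Within 50 kb lay 44 named genes, and among all named genes 3.87% rose. Aurkb, a mitotic kinase gene 47285 bases from Per1, was at 0.229 RPKM in the controls against 0.924 RPKM with STAT5ca (3.84-fold higher by the authors' deposited table, with an adjusted p of 5.18e-05). Ube2e1, a ubiquitin-conjugating enzyme gene 43623 bases from Nr1d2, was at 5.91 and 10.5 RPKM (1.68-fold higher by the authors' deposited table, with an adjusted p of 0.00483).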
